A study of Rattus norvegicus with 10 samples.

Results

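Glycolysis is the chain of cytosolic enzymes that splits glucose into pyruvate, and 10 of its enzymes were followed in the testes of newborn rats: Hk1, Gpi, Pfkl, Pfkp, Aldoa, Gapdh, Pgk1, Eno1, Pkm and Ldha. They were found by matching the RefSeq transcript of each array probe, without its version, to the gene. This gave 14 of the 30367 probes of the array, for 10 of the 15154 genes named on it. The signal of 13 of them cleared background on every array and was tested, while 1 Pkm probe was well above background on 0 of the 10 arrays.

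The RNA came from whole testes at postnatal day 6 and was measured on 10 one-colour arrays, each with a sire code of its own. The pups were male offspring of Brown Norway sires and Sprague Dawley dams, and the sires had received saline or BEP for 9 weeks before a recovery of 9 weeks. BEP is commonly short for bleomycin, etoposide and cisplatin, a chemotherapy of testicular cancer, but no label spells it out, and no label gives a dose. The code holds the letter C on 5 arrays and T on 5, and reading C as saline and T as BEP is an inference from the letters. The labels do not tell how many pups gave RNA to an array, so a p-value measures the spread between these RNA samples. The arrays lay on 2 slides, with 3 C and 2 T on slide 1 and 2 C and 3 T on slide 2.

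Sertoli cells of the seminiferous tubule are known for running glycolysis at a high rate and for exporting lactate, which germ cells take up as fuel. Hexokinase and phosphofructokinase, the enzymes of the early committed steps, use ATP. Phosphoglycerate kinase and pyruvate kinase, further down the chain, return it, and lactate dehydrogenase turns pyruvate into lactate. Several of these genes are classic targets of the hypoxia-inducible factor HIF1, which binds short motifs around a CGTG core. Mature germ cells replace some of the enzymes by versions of their own, among them Pgk2, Gapdhs and Ldhc. At day 6 the germ line of the rat consists of gonocytes and early spermatogonia, before meiosis.

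The promoters of 9 of the 10 genes were in the RefSeq promoter table (build GRCr8), with 13 transcript starts in all. In the 250 bases before the start, ACGTG or GCGTG, searched on both strands, was present in 8 of these 13 windows. The share over all 33465 windows of the same length was 36.7%. The motif GGGCGG, the core of the GC box, stood in 8 of the 13 windows, against 30.5% of all windows. Below, 4 windows are shown because Ldha, Gapdh and Pkm ran together across the arrays while Pfkp ran apart from them. Capitals mark ACGTG or GCGTG on either strand. They lie at chr1:106507842-106508091 on the plus strand for Ldha, chr4:159652468-159652717 on the minus strand for Gapdh, chr8:68953385-68953634 on the plus strand for Pkm and chr17:68639563-68639812 on the plus strand for Pfkp.
Ldha: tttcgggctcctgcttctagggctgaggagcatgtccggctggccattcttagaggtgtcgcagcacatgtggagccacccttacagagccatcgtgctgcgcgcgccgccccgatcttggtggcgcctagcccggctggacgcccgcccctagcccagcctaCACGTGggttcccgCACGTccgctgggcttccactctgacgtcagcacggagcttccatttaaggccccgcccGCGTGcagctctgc
Gapdh: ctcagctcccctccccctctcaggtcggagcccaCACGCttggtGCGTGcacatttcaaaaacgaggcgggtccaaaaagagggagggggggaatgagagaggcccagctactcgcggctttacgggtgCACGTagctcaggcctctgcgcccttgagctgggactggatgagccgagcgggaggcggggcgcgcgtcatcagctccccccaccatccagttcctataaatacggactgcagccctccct
Pkm: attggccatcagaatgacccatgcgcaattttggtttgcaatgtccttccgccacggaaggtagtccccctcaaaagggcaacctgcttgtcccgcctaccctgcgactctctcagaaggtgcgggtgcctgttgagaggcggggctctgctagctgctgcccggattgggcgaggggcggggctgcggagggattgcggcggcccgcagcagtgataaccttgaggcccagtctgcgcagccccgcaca
Pfkp: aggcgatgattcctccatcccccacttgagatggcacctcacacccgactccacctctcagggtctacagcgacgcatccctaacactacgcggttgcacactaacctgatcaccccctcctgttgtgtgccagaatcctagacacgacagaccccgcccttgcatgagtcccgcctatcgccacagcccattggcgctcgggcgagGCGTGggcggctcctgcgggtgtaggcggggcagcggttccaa
The Ldha window held 4 matches of these motifs, where the palindrome CACGTG counts on each strand, the Gapdh window 3, the Pfkp window 1 and the Pkm window 0. A match is only a match of letters, and binding was not measured. The match in the Pfkp window was a GCGTG, and whether these motifs bear on the profile of any enzyme was not tested.

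Values are log2 of the scanner signal minus the 75th percentile of the array, so that 0 is the level of a probe at that percentile. Levels of different probes cannot be ranked against each other, because probes differ in their response. On 9 of the 10 genes the T group mean was below the C group mean, and on 1, Pfkp, it was above. The differences were small, from 3.59% lower for Hk1 to 12.8% lower for Pkm and 8.15% higher for Pfkp. None passed the test: with limma and Benjamini-Hochberg adjustment over 21892 probes, 0 member probes and 0 of all probes (percent called 0) had an adjusted p under 0.05. At an unadjusted p under 0.05 there were 0 of 13 member probes and 869 of all probes (3.97%). The groups overlapped on all 13 member probes, while they did not overlap on 0.722% of the probes measured on all arrays (T below C on 0.53%, T above C on 0.192%). The median difference of the 10 enzymes was -0.087, against -0.0089 over all 11561 genes tested, of which 53.9% were lower in the T group. In whole testes, fewer cells of a type and less RNA per cell cannot be told apart.

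**Figure D1:**
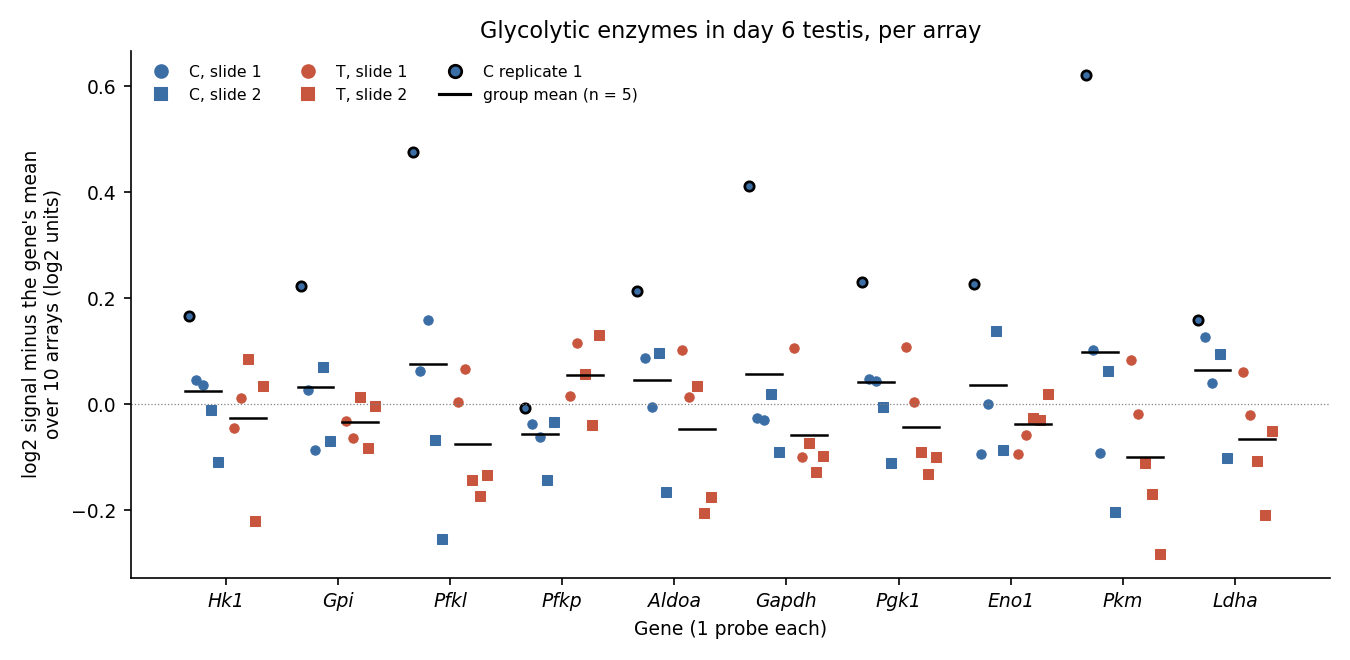
Level of each enzyme on each array (y axis, log2 signal minus the mean of that gene over the 10 arrays) for the C group (blue) and the T group (red), with circles for slide 1, squares for slide 2 and bars for group means (n = 5). C replicate 1, outlined in black, is the highest array for 9 of the 10 genes, and the groups overlap for every gene.

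The first steps trap glucose and rearrange it. Hk1, the hexokinase that phosphorylates glucose, stood at 2.40, 2.27, 2.27, 2.22 and 2.12 on C replicates 1 to 5 and at 2.18, 2.24, 2.31, 2.01 and 2.26 on T replicates 1 to 5. The lowest value was that of T replicate 4 and the others overlapped. The T minus C difference was -0.053 ± 0.075 (SE, 5 arrays per group; limma adjusted p = 0.9985). Gpi, the isomerase that turns glucose 6-phosphate into fructose 6-phosphate, stood at 2.93, 2.74, 2.62, 2.78 and 2.64 on the C arrays and at 2.68, 2.65, 2.72, 2.63 and 2.71 on the T arrays. Apart from C replicate 1 the arrays of both groups covered about the same range, and the difference was -0.066 ± 0.068. The SD of Gpi was 0.125 among C and 0.0401 among T arrays.

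Phosphofructokinase makes fructose 1,6-bisphosphate and is the main control point of the chain. Its liver-type and platelet-type subunits are members here, and the difference between them was not tested. Pfkl, the liver type, stood at -1.0, -1.41, -1.32, -1.54 and -1.73 on C replicates 1 to 5. On T replicates 1 to 5 it stood at -1.47, -1.41, -1.62, -1.65 and -1.61. The T values lay inside the range of the C values, which was wide. The difference was -0.15 ± 0.12 (limma adjusted p = 0.9985), and the other Pfkl probe gave -0.16 ± 0.12. These probes correlated at 0.989 over the 10 arrays.

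Pfkp, the platelet type, stood at 3.34, 3.31, 3.28, 3.20 and 3.31 on the C arrays. On the T arrays it stood at 3.36, 3.46, 3.40, 3.31 and 3.48. T replicate 4 was level with the C arrays, and the other 4 T values exceeded the highest C value. The group means were 3.29 ± 0.0523 (SD, n = 5) and 3.40 ± 0.0704, a difference of 0.11 ± 0.056 (SE; 95% interval -0.012 to 0.24; limma unadjusted p = 0.0717, adjusted p = 0.9985). Pfkp was also the steadiest of the enzymes: its SD within groups was 0.062, lower than that of all but 3.51% of the probes tested. For Pfkm, the muscle-type subunit, the T minus C difference was -0.044 ± 0.083.

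Aldoa, the aldolase that splits the 6-carbon sugar, stood at 3.18, 3.05, 2.96, 3.06 and 2.80 on the C arrays and at 3.06, 2.98, 3.00, 2.76 and 2.79 on the T arrays. C replicate 5 lay beside the lowest T arrays, replicates 4 and 5, and the difference was -0.091 ± 0.088. Aldoart2, known in the mouse as a retrogene copy of Aldoa, correlated with it at 0.952 over the 10 arrays, and its T minus C difference was -0.096 ± 0.083. Signal of such near-identical genes cannot be assigned to either with certainty. Processed copies of Gapdh and of other glycolytic genes are common in the rat genome, so the same reserve holds for them.

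The later steps harvest energy. Gapdh, the dehydrogenase that starts this phase, had 3 tested probes. The brightest stood at 4.36, 3.93, 3.92, 3.97 and 3.86 on C replicates 1 to 5 and at 4.06, 3.85, 3.88, 3.82 and 3.85 on T replicates 1 to 5. Replicate 1 of either group stood apart on the high side. The difference was -0.12 ± 0.098 on this probe, -0.055 ± 0.072 on the next and -0.049 ± 0.066 on the last. Gapdh is widely used as a reference gene, and its 95% intervals excluded a 1.5-fold difference in either direction, as did those of all 13 member probes.

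Pgk1, the kinase of the first ATP-yielding step, stood at 4.34, 4.16, 4.15, 4.11 and 4.00 on the C arrays and at 4.22, 4.11, 4.02, 3.98 and 4.01 on the T arrays. The highest T array, replicate 1, lay above 4 of the 5 C arrays. The difference was -0.083 ± 0.076. Eno1, the enolase of most tissues, stood at 3.62, 3.30, 3.39, 3.53 and 3.31 on the C arrays and at 3.30, 3.33, 3.37, 3.36 and 3.41 on the T arrays. Its T values were tightly grouped (SD 0.0421), the C values less so (SD 0.142), and the difference was -0.075 ± 0.073.

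Pkm, the pyruvate kinase, was read from 1 tested probe with 1 spot per array and had the widest range of the 10 enzymes. It stood at 2.25, 1.73, 1.54, 1.69 and 1.42 on the C arrays and at 1.71, 1.61, 1.52, 1.46 and 1.35 on the T arrays. C replicate 1 exceeded the next array by far, and the other arrays formed a continuous series. The difference was -0.20 ± 0.14 (95% interval -0.51 to 0.12; limma adjusted p = 0.9985). The probe does not tell the M1 and M2 splice forms apart, as far as its transcript label shows, and the 1 Pkm probe below background carries the same label.

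Ldha, which makes lactate, stood at 5.18, 5.15, 5.06, 5.12 and 4.92 on the C arrays and at 5.08, 5.00, 4.92, 4.81 and 4.97 on the T arrays. All 5 T arrays were below the median of the C arrays, and C replicate 5 lay among the T arrays. The group means were 5.09 ± 0.102 (SD, n = 5) and 4.96 ± 0.101. The difference was -0.13 ± 0.072 (95% interval -0.29 to 0.030; limma unadjusted p = 0.101, adjusted p = 0.9985). Of the 9 enzymes with a lower T mean, Ldha kept most of its difference without C replicate 1 (-0.11 ± 0.074).

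**Figure D2:**
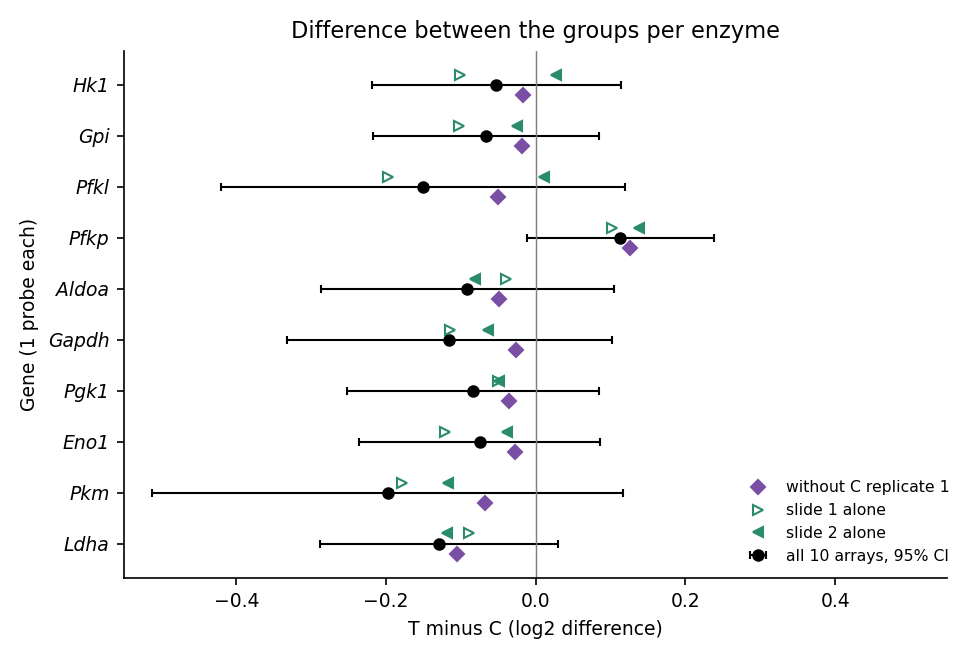
T minus C difference of each enzyme (x axis, log2 units; genes on the y axis) over all 10 arrays with its 95% confidence interval (black), without C replicate 1 (diamonds), and within slide 1 or slide 2 (triangles). All 10 intervals include 0, and without C replicate 1 the differences of all but Pfkp and Ldha lie between -0.067 and -0.017.

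The size of the common shift rested on C replicate 1. It had the highest value of 9 of the 10 enzymes, all except Pfkp, and was the dimmest array, with a 75th percentile of 1525 units against 1905 to 2686 on the others. Without it the 9 enzymes were still lower in the T group, but their differences shrank: the median of the 10 was -0.032 in place of -0.087, and that of all genes was 0.0020. Pkm went from -0.20 to -0.067, Gapdh from -0.12 to -0.026 and Pfkl from -0.15 to -0.051. Pfkp, by contrast, stood at 0.13 ± 0.059. With 0 probes past the adjusted threshold there as well, the test of each enzyme was not passed in either setting.

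By Pearson correlation the levels of 9 of the enzymes varied together across the 10 arrays, and that of Pfkp did not follow them. The median Pearson correlation of the 45 pairs over the 10 arrays was 0.686, and 37 pairs were above 0, while the median over all pairs of 11557 genes was 0.026. Among the 9 enzymes other than Pfkp all 36 pairs were above 0, with a median of 0.706. By rank correlation (rho) Eno1 followed the other enzymes less, from -0.018 with Pkm and -0.006 with Pgk1 to 0.418 with Hk1. Gapdh and Pkm were closest (r = 0.938), then Pfkl and Pgk1 (0.917) and Pgk1 and Pkm (0.906). Pfkp correlated with the 9 others at a median of -0.18. Pairs share the same RNA samples, slides and scaling, so these values describe the arrays and were given no test.

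Without C replicate 1 the median of the 36 pairs was 0.505 and 32 were above 0. Aldoa and Pkm then had the highest value (r = 0.905), followed by Pgk1 and Ldha (0.850) and Pfkl and Pgk1 (0.825). The Pearson correlation of Eno1 with Pgk1 went from 0.465 to -0.156, and with Pkm from 0.635 to -0.049. Eno1 and Gpi went from 0.809 to 0.495, while Eno1 with the others except Pfkp then ran from -0.156 to 0.141. The correlation of Gpi fell from 0.65 to -0.042 with Pfkl, from 0.648 to 0.142 with Pgk1 and from 0.84 to 0.365 with Gapdh. It fell less with Aldoa (0.699 to 0.535) and Ldha (0.649 to 0.515). Pfkp had a median of -0.235 with the others.

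**Figure D3:**
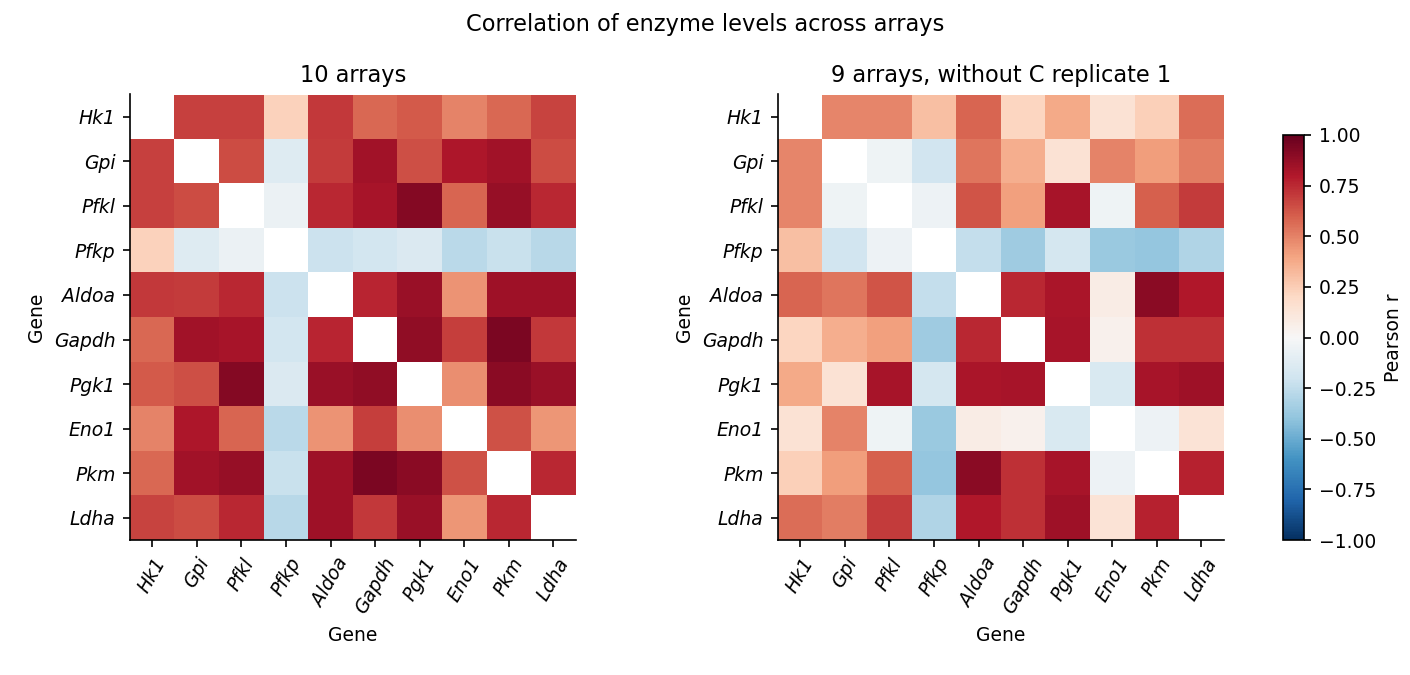
Pearson correlation (colour scale, -1 to 1) of each pair of enzymes across all 10 arrays (left) and across 9 arrays without C replicate 1 (right); genes on both axes. Pfkp is pale or blue against almost all others in both panels, and Eno1 turns pale against most others in the right one.

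The mean deviation of the 10 enzymes, each centred over the arrays, was 0.273, 0.035, 0.0008, 0.026 and -0.122 on C replicates 1 to 5 and 0.032, -0.0044, -0.036, -0.139 and -0.065 on T replicates 1 to 5. It ran against the brightness of the arrays, with r = -0.80 and rho = -0.673 against the 75th percentile over 10 arrays, and r = -0.493 without C replicate 1 and T replicate 4, the arrays farthest from the median deviation. This percentile is also subtracted from every level, so the 2 quantities share a term. How much of the correlation comes from that was not tested. The deviation was also set against 18 gene lists. Against 8 germ cell markers it gave r = -0.617 and rho = -0.855, and r = -0.641 without those 2 arrays. Of these markers, 7 of 8 were higher in the T group, and all 8 were well above background on every array. Their summed level ran from 2.86 to 3.23 times the 75th percentile on the C arrays. On the T arrays it ran from 3.08 to 3.91. Such a sum adds unlogged levels, so the brightest probes of a list weigh most in it, and it does not measure cell content. Against 9 Sertoli cell markers the mean enzyme deviation gave r = 0.559 and rho = 0.77, and r = 0.482 without the 2 arrays. Of these, 7 of 9 were lower in the T group. Summed levels ran from 50.02 to 59.7 on the C arrays and from 44.6 to 56.4 on the T arrays. Within slide 1, 5 of the 9 were higher in the T group, and within slide 2, 0 were. Against 6 markers of peritubular myoid cells, r was 0.826, rho 0.661, and r was 0.329 without the 2 arrays. Of these, 5 of 6 were lower in the T group, with summed levels from 24.7 to 31.7 on the C arrays and from 23.1 to 27.1 on the T arrays. Endothelial markers gave r = 0.672 and rho = 0.709, and r = 0.569 without the 2 arrays, although 4 of these 5 were higher in the T group (summed levels from 2.28 to 2.91 on the C arrays and from 2.63 to 3.02 on the T arrays). Macrophage markers gave r = 0.615 and rho = 0.552, and without the 2 arrays r = 0.924, the highest among the 18 lists. Of these, 3 of 7 were higher in the T group, with summed levels from 6.46 to 7.75 on the C arrays and from 6.62 to 7.33 on the T arrays. The other enzymes of the same steps gave r = 0.663, rho = 0.539 and r = 0.738 without the 2 arrays, and the pentose phosphate list gave 0.635, 0.673 and 0.440. A list of 2 fat cell genes gave 0.691, 0.430 and 0.609. The other 10 lists had r between -0.159 and 0.317 over the 10 arrays, and between -0.632 and 0.389 without the 2 arrays. Leydig cell markers went from 0.317 to -0.615, and 4 of these 6 were higher in the T group. The list of hypoxia-inducible factors and their targets went from -0.159 to -0.632. The part of array brightness and of cell make-up in the enzyme values was not tested.

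**Figure D4:**
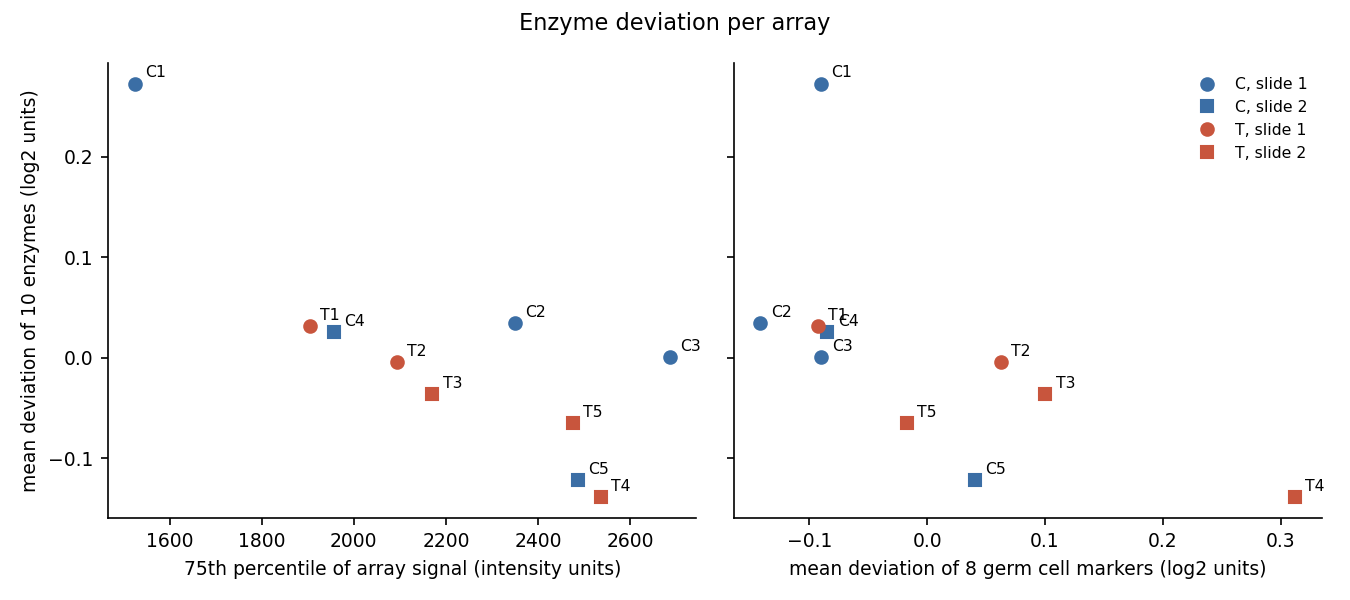
Mean deviation of the 10 enzymes on each array (y axis, log2 units) against the 75th percentile of the array signal (left, intensity units) and against the mean deviation of 8 germ cell markers (right, log2 units), with labels for group and replicate. C1 is the dimmest array with the highest enzyme deviation, and T4 has the highest germ cell marker deviation with the lowest enzyme deviation.

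The 5 genes outside the lists whose profile was most like the mean enzyme profile were Mfsd12, Psmf1, Hsp90ab1, Fgf12 and Lingo4. Their Pearson correlations over the 10 arrays were 0.964, 0.962, 0.962, 0.960 and 0.956. Without C replicate 1 and T replicate 4 they were 0.902, 0.870, 0.934, 0.804 and 0.824. Their T minus C differences were -0.17, -0.075, -0.052, -0.15 and -0.23, with an unadjusted limma p between 0.131 and 0.466.

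Slides crossed the groups. The sire code digit after the letter was 2 only on C replicate 5 and T replicates 4 and 5, all of slide 2. There the mean enzyme deviation was -0.122, -0.139 and -0.065. On C replicate 4 and T replicate 3, of slide 2 with digit 1, it was 0.026 and -0.036. A slide difference can therefore not be fully told apart from one between the digits, and this was not tested. On slide 2, 9 of the 10 enzymes were lower than on slide 1, with group as a term in the fit, and the median was -0.13 against -0.0067 over all genes. Of the 13 member probes, 3 did not overlap between the slides, both of Pfkl and that of Pgk1, against 11.3% of all probes measured on all arrays. Pfkl ranged from -1.47 to -1.0 on slide 1 and from -1.73 to -1.54 on slide 2 (slide 2 minus slide 1 -0.29 ± 0.089). Its limma adjusted p was 0.0737 on this probe and 0.0568 on the other. Pgk1 ranged from 4.114 to 4.341 on slide 1 and from 3.979 to 4.106 on slide 2. Of the 13 member probes 0 passed the adjusted threshold, against 2143 of all probes (9.79%; 8.63% lower and 1.16% higher on slide 2), and 3 had an unadjusted p under 0.05, 2 of Pfkl and 1 of Pgk1 (-0.16 ± 0.059), against 24.1% of all probes. With quantile normalization 6 of the 10 enzymes were lower on slide 2. Within slide 1 the T minus C difference was negative for 9 of the 10 enzymes (median -0.10). Within slide 2 it was negative for 7 (median -0.044), with Hk1 at 0.027 and Pfkl at 0.011. Over all 11561 genes tested the median was 0.015 within slide 1, where 6351 were higher in the T group. Within slide 2 the median of all genes was -0.021, and 4978 were higher. A test of whether the difference depends on the slide called 0 probes after adjustment (690 at an unadjusted p under 0.05, 3.15%), and no enzyme was among the latter. Pfkp was higher in the T group on both slides, by 0.10 and 0.14.

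The surrounding steps of carbohydrate metabolism were read from the same fit. Of 73 tested genes in 8 lists around glycolysis, 34 had a higher and 39 a lower T mean, 0 passed the adjusted threshold and 5 had an unadjusted p under 0.05, 4 of them higher, against 3.97% of all probes. The majority is not stable: more of these genes were higher than lower in 14 of 25 alternatives, with 43 of 73 higher after scaling on the median of the tested probes, 42 without C replicate 1 and 41 with the authors' values. Other enzymes of the same steps were higher for 6 and lower for 10 of 16 (median -0.013). Tpi1, the triose phosphate isomerase, had a T minus C difference of -0.11 ± 0.074, Pgam1, the phosphoglycerate mutase, of -0.058 ± 0.060, and Ldhb, the heart-type lactate dehydrogenase, of -0.078 ± 0.066. Aldoc, the brain-type aldolase, had a T minus C difference of 0.16 ± 0.073 (limma unadjusted p = 0.0484, adjusted p = 0.9985), and its other probe gave 0.17 ± 0.061. Hk2, the insulin-responsive hexokinase, had a T minus C difference of 0.047 ± 0.13.

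Carriers of glucose and lactate were split 5 to 5 (median 0.015). Slc2a1, the widespread glucose carrier GLUT1, had a T minus C difference of 0.15 ± 0.10 and Slc2a4, the insulin-responsive GLUT4, of 0.14 ± 0.086. Slc2a5, a fructose carrier, had a T minus C difference of 0.26 ± 0.11 (limma unadjusted p = 0.0317, adjusted p = 0.9985), with 0.066 within slide 1 and 0.44 within slide 2. The lactate carriers Slc16a1 and Slc16a3 had T minus C differences of -0.0089 ± 0.081 and 0.031 ± 0.11. Slc2a3 was above background on 0 of the 10 arrays.

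Of the germ cell isozymes, Pgk2 and Gapdhs were above background on 0 of the 10 arrays, while Ldhc was above it on all 10. Ldhc had a T minus C difference of 0.40 ± 0.13 (limma unadjusted p = 0.0115, adjusted p = 0.9985), against -0.13 for Ldha and -0.078 for Ldhb. Eno4, an enolase of sperm, was above background on 9 of the 10 arrays and had a T minus C difference of -0.29 ± 0.29.

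Enzymes that open or close the chain showed no passing difference either. Pfkfb1, which sets the level of the activator of phosphofructokinase, had a T minus C difference of 0.13 ± 0.11. Pdk2, a kinase that switches off pyruvate dehydrogenase, had a T minus C difference of 0.090 ± 0.086, and Pdp1, the phosphatase that switches it on, of 0.075 ± 0.056. Flux regulators were higher for 6 of 10 (median 0.056). Genes of pyruvate entry into mitochondria were higher for 3 of 7 (median -0.015), with a T minus C difference of 0.12 ± 0.080 for Dlat, a subunit of pyruvate dehydrogenase, and for the pyruvate carrier subunits Mpc1 and Mpc2 of -0.066 ± 0.056 and -0.097 ± 0.092. Of 4 gluconeogenic genes 3 were higher (median 0.11). Fbp1, a fructose bisphosphatase that reverses the phosphofructokinase step, had a T minus C difference of 0.21 ± 0.072 (limma unadjusted p = 0.0142, adjusted p = 0.9985), Fbp2 of 0.15 ± 0.15 and Pck2 of 0.074 ± 0.13.

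The pentose phosphate pathway, which branches off at glucose 6-phosphate, had 2 genes higher and 5 lower of 7 (median -0.063). Rpia had a T minus C difference of -0.15 ± 0.091, Taldo1 of -0.095 ± 0.088 and Pgls of -0.085 ± 0.071. Genes of the hypoxia-inducible factors and their targets outside glycolysis were split 8 to 8 (median -0.0083). Arnt, the partner of the HIF alpha subunits, had a T minus C difference of -0.37 ± 0.16 (limma unadjusted p = 0.0437, adjusted p = 0.9985) but was well above background on only 3 of the T arrays. Ero1a had a T minus C difference of 0.099 ± 0.067 and Epas1, which encodes HIF2 alpha, of -0.089 ± 0.080. The mean deviation of these 16 genes correlated with that of the 10 enzymes at r = -0.159 and rho = -0.358 over 10 arrays, and at r = -0.632 without C replicate 1 and T replicate 4.

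**Figure D5:**
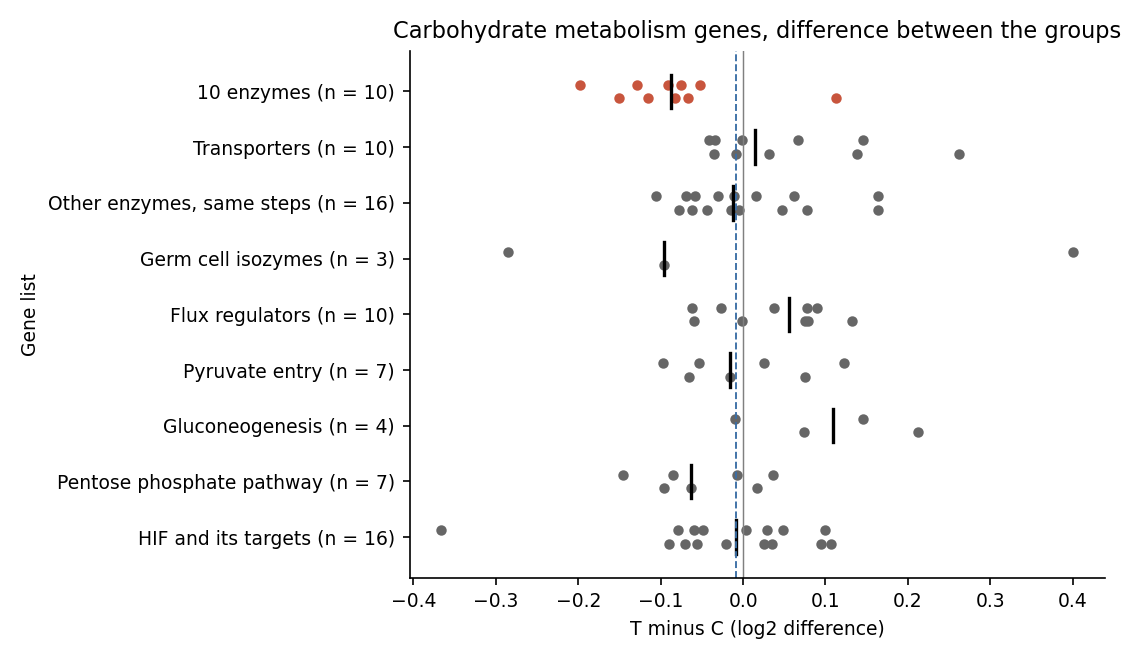
T minus C difference (x axis, log2 units) of each tested gene (points, 1 probe per gene) in the 10 enzymes (red) and 8 lists of carbohydrate metabolism (grey; lists on the y axis), with list medians (black bars) and the median of all genes (dashed line). The 10 enzymes lie left of 0 except Pfkp, with a median of -0.087, while the transporters are split 5 to 5.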

How the data were processed

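Per the file headers, the deposited intensity of a spot is the processed signal of Agilent Feature Extraction, version 10.7.3.1, given beside a background-subtracted signal. The submitters' processing notes name version 10.7. No scaling between arrays is recorded in the headers. The authors' processed table holds log2 values centred per probe. Its scaling and probe filter are not given in the sources used here, and it served only as an alternative.

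Spots flagged as outliers (494 to 745 per array) were left out and 0 were saturated. Replicate spots were averaged, and log2 signal minus the 75th percentile of the array was tested. A probe was tested if well above background on at least 5 of 10 arrays (21892 of 30367, 72.1%). The number of arrays limits the precision, and the 95% interval of a difference reached 0.221 to either side at the median. Symbols came from RefSeq transcripts of GRCr8 (17998 probes named, 12369 not), and the array design names rn4 on 5 arrays. For genes with several probes, the one with the highest mean stood for the gene. limma 3.58.1 in R 4.3.3 compared T with C without a covariate, adjusted p-values by Benjamini and Hochberg over the tested probes, and was tested on simulated data. Pairs of arrays correlated at 0.9899 to 0.9966.

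The members and lists were chosen with earlier results of these data known. Named were all members, up to 3 genes per list with the smallest p, a panel of 10 genes, and the 5 genes most like the mean member profile. The alternatives covered background correction, scaling, filter, flagged spots, variance model, array weights, slide, sire codes, choice of probe, the authors' table and each array left out in turn. Leaving out C replicate 1 with slide as a block was added after seeing the data. Normexp used the median spot signal, since the files used here give no mean. Some markers and list genes had no named probe and are not analysed here.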

Additional observations from a re-analysis of the deposited data

Results flagged for a closer look

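Of 30 sets of 5 arrays examined (13 member probes, the mean enzyme deviation and the array brightness in each group), 2 had an array far from the others, and chance gives about 1 in 20. Both belong to the brightest Gapdh probe, which has 1 spot per array, while the other Gapdh probes have 2. In the C group, replicate 1 stood at 4.36 with the others from 3.86 to 3.97, and in the T group, replicate 1 stood at 4.06 with the others from 3.82 to 3.88. The other Gapdh probes gave 3.91 and 3.53 for C replicate 1 and 3.69 and 3.52 for T replicate 1, which did not stand apart to that degree.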

How the results depend on the processing

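The count of probes past the adjusted threshold was 0 under all 25 alternatives, with 481 unadjusted under normexp (offset of 50) against 869. Of 10 enzymes, 1 was higher in the T group in 24 of 26 alternatives. It was 3 within slide 2, where Hk1 stood at 0.027 and Pfkl at 0.011. With the sire number as a replicate block it was 6, with Hk1 at 0.042, Pfkl at 0.062, Aldoa at 0.044, Gapdh at 0.011 and Pgk1 at 0.030, a median of 0.020 and 697 unadjusted probes. That fit rests on the 6 arrays that share sire numbers 2, 4 and 6. Their deviations from the group means correlated at -0.512 for number 2, whose arrays lay on different slides. For numbers 4 and 6, whose arrays shared a slide, the values were 0.283 and 0.194. Because slide differs between these pairs, the values cannot decide whether the numbers pair the samples, and the main fit takes no pairing. Of these 6 arrays, 0 correlated best with the array of its own number. Over the other alternatives the median ran from -0.13 to -0.025, the latter without C replicate 1 and with slide as a block, and 1 enzyme was higher there. Leaving out 1 array in turn, the median ran from -0.13 to -0.032, the highest without C replicate 1, and the number of higher enzymes was always 1. The slide difference called 1277 to 2753 probes without 1 array each, against 2143. It was 1277 without C replicate 5, 1334 without T replicate 1 and 1410 without T replicate 2, and 0 member genes were called in these settings. With no term for the group it was 2521, with 1 member gene among them. The dependence of the T minus C difference on slide called 0 to 2 probes without 1 array each, against 0: 1 without C replicate 4, 2 without C replicate 5 and 2 without T replicate 4. Genes of the 8 lists that were higher in the T group numbered 32 to 43 in the other settings, against 34. The cause of these changes was not tested. Probes near background, such as Eno4 and Arnt, limit what can be read from the lists.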
